A study of Homo sapiens with 4 samples.

Results

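The regions described here are stretches of RNA enriched for N6-methyladenosine (m6A) whose centre lies in a young copy of the LINE-1 (L1) retrotransposon. They were all regions of the deposited set annotated as intronic or intergenic with L1HS, L1PA2, L1PA3 or L1PA4 as the repeat at the centre, and there were 564 of them among 9900 regions (5.7%). They came from m6A-seq of wild-type H1 cells, an established human embryonic stem cell line, with 2 libraries of RNA pulled down with an m6A antibody and 2 libraries of input RNA. All 4 libraries shared the WT genotype and no other treatment was labelled. The deposited positions form 1 intersected set of MACS2 peaks that carries no caller score and nothing measured in a single library. Depth was therefore unknown, no replicate error could be set beside a difference, and the labels do not say whether replicates were separate cultures. Intervals are exact binomial (Clopper-Pearson) at 95%, taken over regions or genes, and cover counting error only.

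L1 elements copy themselves through an RNA intermediate. A full-length element holds an internal promoter at its 5' end, an open reading frame for an RNA-binding protein (ORF1p), a second for an endonuclease and reverse transcriptase (ORF2p), and a polyadenylation signal. L1HS is the human-specific subfamily and the one still able to move, and L1PA2, L1PA3 and L1PA4 are successively older primate subfamilies. Embryonic stem cells are known to transcribe young L1 copies, and m6A, which is placed mainly on adenosines within a short consensus, has been described on L1 RNA in human and mouse cells. The region files carry no strand of transcription, so RNA that starts at an L1 promoter and L1 sequence within the RNA of a host gene cannot be told apart here. Copies of young subfamilies are nearly identical. The handling of reads that align to several copies is not given in the sources used, and its part in these results was not tested.

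Of the members, 188 were centred in L1PA3 (33.3%, interval 29.5 to 37.4%), 180 in L1PA2 (31.9%, 28.1 to 35.9%), 164 in L1PA4 (29.1%, 25.4 to 33%) and 32 in L1HS (5.67%, 3.91 to 7.92%). They made up 25.5% of the 2215 intronic and intergenic regions centred in any L1. Together they covered 1515223 bp. The rule reads the repeat at the centre only, so an L1 elsewhere in a region is not counted, and a region over 20 kb (4 members) extends far beyond any single L1 copy.

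The L1 sequences themselves were not analysed here. The only sequences that could be set beside members were those of annotated gene starts, and 5 of the 564 members met one, as a window from 250 bases before to 50 bases after the start site. In 2 of these the window was that of the member's own host gene, and both are shown to let the end of a wide member be read base by base. The PANK3 member, in intron 1 of 6 of a gene for pantothenate kinase, which begins coenzyme A synthesis, was 10782 bp wide and centred in L1PA3. It reached 158 bp past the start site. The DNAH14 member, in intron 1 of 5 of a gene for a dynein heavy chain, was 22897 bp wide and centred in L1PA4. It began 28 bp downstream of the start site used for the window. The DNAH14 member also met the window of another DNAH14 start site, with 1 base inside. It met that of a second gene, on the minus strand, with 119 bases inside. The regions carry no strand, so this end is not assigned to either gene. The 2 windows shown are RefSeq sequence of GRCh38.p14, written 5' to 3' on the strand of the gene. They are the minus strand of chr5:168579319-168579618 for PANK3 and the plus strand of chr1:224929425-224929724 for DNAH14. Capitals mark the bases inside the m6A region (208 for PANK3 and 22 for DNAH14).
PANK3: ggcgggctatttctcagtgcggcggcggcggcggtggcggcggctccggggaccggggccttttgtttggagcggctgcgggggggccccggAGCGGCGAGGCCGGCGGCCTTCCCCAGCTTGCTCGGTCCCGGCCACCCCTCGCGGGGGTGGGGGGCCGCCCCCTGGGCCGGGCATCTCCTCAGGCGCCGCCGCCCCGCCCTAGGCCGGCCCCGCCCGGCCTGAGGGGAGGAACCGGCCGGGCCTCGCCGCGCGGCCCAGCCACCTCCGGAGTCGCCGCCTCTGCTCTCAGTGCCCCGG
DNAH14: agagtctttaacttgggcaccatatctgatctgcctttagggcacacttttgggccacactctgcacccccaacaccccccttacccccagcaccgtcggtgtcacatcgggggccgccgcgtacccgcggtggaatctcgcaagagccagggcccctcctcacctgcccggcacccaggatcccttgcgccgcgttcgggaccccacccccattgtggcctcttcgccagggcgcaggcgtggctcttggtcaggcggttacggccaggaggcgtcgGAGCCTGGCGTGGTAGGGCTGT
The PANK3 region spans the whole stretch from the L1PA3 at its centre to the gene start, and the DNAH14 region begins just inside the gene and runs into intron 1. The other 3 members that met a start window were 63836, 70617 and 266328 bp wide and held it away from their ends by over 1 kb. The widest also enclosed its whole host gene, the long non-coding RNA gene PCAT4, for which no start window was used here.

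Widths fell into 2 main groups. Members ranged from 614 to 266328 bp with a median of 1333.5 bp (quartiles 1037.2 and 2202.8 bp). The fullest bin of 100 bp was at 1000 to 1099 bp, with 71 members (12.6%). A second rise was centred at 2100 to 2199 bp, with 38 members (6.74%), and only 4 members (0.709%) were between 1500 and 1599 bp. In all, 308 members were under 1.5 kb (54.6%, 50.4 to 58.8%) and 109 were between 2 and 2.5 kb (19.3%, 16.1 to 22.8%). Regions centred in the next older subfamilies, L1PA5 to L1PA8A (532 regions), had a median of 1154 bp, with 69% under 1.5 kb and 8.08% (5.91 to 10.7%) between 2 and 2.5 kb. They too had a second, smaller rise, from 3 regions (0.564%) at 1700 to 1799 bp to 17 (3.2%) at 2000 to 2099 bp. Among all regions of the series the share between 2 and 2.5 kb was 8.66%. The 2 to 2.5 kb window was chosen after the widths had been seen, so its shares are given without a test.

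**Figure D1:**
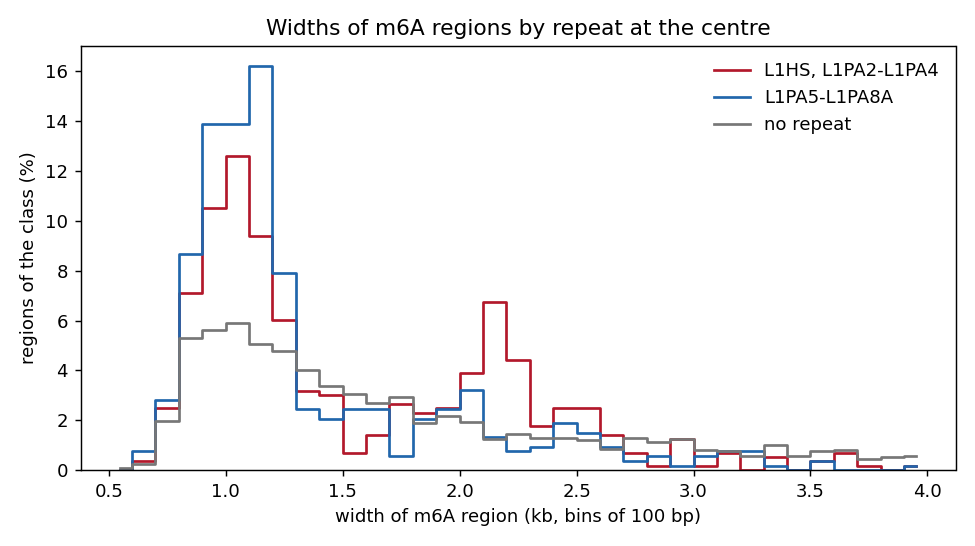
Share of regions (y axis, % of the class) in each 100 bp bin of region width (x axis, kb, shown to 4 kb), for members (red), L1PA5 to L1PA8A regions (blue) and intronic or intergenic regions with no repeat at the centre (grey). Members peak at 1000 to 1099 bp with 12.6% and again at 2100 to 2199 bp with 6.74%.

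The 2 to 2.5 kb group was larger in L1PA2 and L1PA3 than in L1PA4. It held 44 of 180 L1PA2 regions (24.4%, 18.4 to 31.4%) and 44 of 188 L1PA3 regions (23.4%, 17.6 to 30.1%). In L1PA4 it held 17 of 164 (10.4%, 6.16 to 16.1%), and in L1PA5, the next older subfamily, 11 of 145 (7.59%, 3.85 to 13.2%). L1PA6 and L1PA7 had 7.27% and 8.17%, and the smaller L1PA8 and L1PA8A 3 of 41 (7.32%) and 4 of 28 (14.3%). The intervals of L1PA2 and L1PA3 lie above those of L1PA4 and L1PA5 without overlap. With 4 of 32 regions (12.5%, 3.51 to 29%), L1HS spans both levels and cannot be placed. Median widths were 1380.5 bp in L1HS, 1395.5 bp in L1PA2, 1461.5 bp in L1PA3 and 1194.5 bp in L1PA4.

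**Figure D2:**
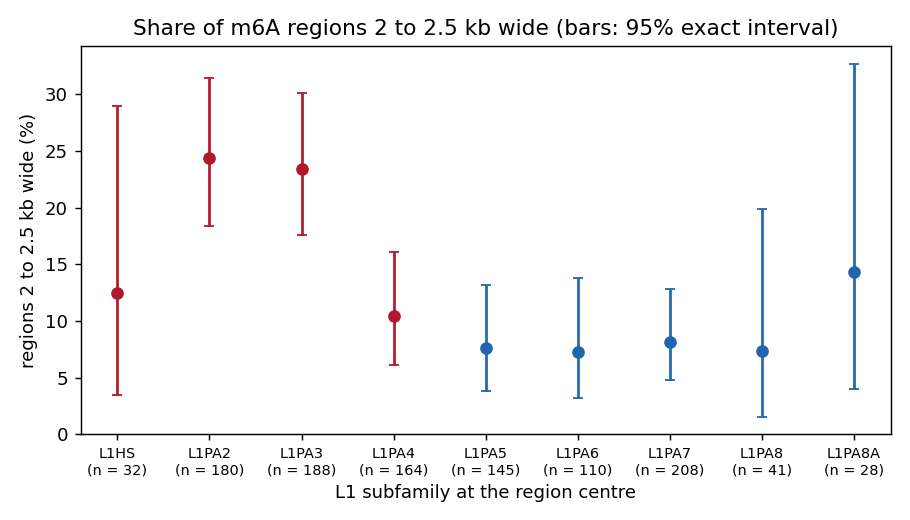
Share of regions 2 to 2.5 kb wide (y axis, %) by L1 subfamily at the centre (x axis, youngest at left), members in red and L1PA5 to L1PA8A in blue. Points are shares and bars are 95% exact intervals. L1PA2 (24.4%) and L1PA3 (23.4%) lie above L1PA4 (10.4%) and the 3 next older subfamilies (7.27 to 8.17%). The window was chosen after the widths had been seen, and no test was made.

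Single members show the range. Among L1HS regions, the narrowest (698 bp, chr7:110711757-110712454) was in intron 5 of 5 of IMMP2L, a mitochondrial inner membrane peptidase gene. A region of 1451 bp (chr12:69777105-69778555) in intron 3 of 8 of RAB3IP, a Rab guanine exchange factor gene, and a region of 1310 bp in intron 4 of 6 of SATB1-AS1 lay nearest the L1HS median. Among the widest was a region of 5292 bp in intron 9 of 33 of STAG1, a cohesin subunit gene. Other L1HS regions lay in intron 23 of 26 of the tumour suppressor gene RB1 (2448 bp) and in intron 1 of 15 of SVOP (2261 bp). These 2 fall in the second width group, and both names were chosen after their values were seen.

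In L1PA2 the narrowest member, 614 bp, was in intron 2 of 8 of NR3C2, which encodes the mineralocorticoid receptor. The widest L1PA2 members were 12914 bp in intron 13 of 14 of GOLIM4, a Golgi membrane protein gene, and 6956 bp in intron 4 of 5 of the pseudogene TPTE2P5. Those nearest the L1PA2 median were 1386 bp in intron 10 of 11 of the long non-coding RNA gene CASC15 and 1405 bp of intergenic sequence (chr4:120646241-120647645). In L1PA3, regions of 1493 bp in intron 1 of 26 of KCNT2, a potassium channel gene, and 1430 bp in intron 2 of 10 of SUPT3H, a SAGA complex subunit gene, lay nearest the median. The narrowest L1PA3 member was 721 bp of intergenic sequence on chromosome 3. Its widest members up to 20 kb were 11775 bp in intron 24 of 35 of the readthrough gene ANKHD1-EIF4EBP3 and 11145 bp in intron 7 of 10 of STK3, a Hippo pathway kinase gene. In L1PA4, regions of 1195 bp in intron 41 of 94 of DST, a cytoskeletal linker gene, and 1194 bp of intergenic sequence on chromosome 3 lay nearest the median. The widest L1PA4 members up to 20 kb were 17888 bp in intron 19 of 20 of CEP120, a centriole gene, and 14970 bp in intron 1 of 9 of NOS1AP. The narrowest, 740 bp of intergenic sequence (chr19:27696398-27697137), was 714 bp from another L1PA4 region of 2788 bp.

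That neighbouring arrangement recurred. In 25 cases 2 members followed each other with a gap under 2 kb, which took in 49 of the 564 members (8.69%). In 21 of the 25 both centres had the same subfamily name, 8 in L1PA4, 7 in L1PA2 and 6 in L1PA3, and no L1HS region was in a pair. The median gap was 1694 bp, and 22 of the 25 gaps were between 1300 and 2000 bp. Only 3 further neighbouring members had a gap of 2 to 10 kb. From outer end to outer end the pairs spanned a median of 5022 bp. With a limit of 3 kb on the gap in place of 2 kb there were again 25 pairs. What sets the span was not tested. Each pair was also sorted into its wider and its narrower region. The wider had a median of 2457 bp and the narrower a median of 865 bp, and the wider was at least 2 times as wide in 19 of 25 pairs. The sorting fixes the order of these medians, and member widths fall into 2 main groups in any case. Arbitrary pairs of members were not set beside these values. Whether both regions of a pair lie on the same L1 copy was not tested, since the files hold no repeat boundaries.

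In intron 7 of 22 of EHBP1, an endocytic adaptor gene on the plus strand of chromosome 2, an L1PA2 region of 2457 bp preceded one of 889 bp, with a gap of 1787 bp. In intron 2 of 9 of ADK, the adenosine kinase gene on the plus strand of chromosome 10, an L1PA3 region of 2688 bp preceded one of 815 bp, with the same gap of 1787 bp. In intron 7 of 11 of RFX7, a transcription factor gene on the minus strand of chromosome 15, the order along the chromosome was turned, with 812 bp before 2729 bp and a gap of 1859 bp. In intron 17 of 63 of ATM, the DNA damage kinase gene, both L1PA2 regions were narrow, 916 and 809 bp, 1825 bp apart. Of the 9 pairs in a host gene with a known strand, the wider region lay upstream in the direction of host transcription in 7, the nearly even ATM pair included, and downstream in 2, CSNK1G1 and P2RY14. Close pairs were also found at other L1. Per 100 regions they were more frequent in L1PA5 to L1PA8A (6.02) and older primate L1 (5.07) than in members (4.43). Ancient mammalian L1 had 2.26 per 100. In L1PA5 to L1PA8A there were 32 such pairs among 532 regions, all 32 with the same subfamily name, with a median gap of 1279.5 bp. Their wider regions had a median of 1816 bp and their narrower ones 1003 bp, the wider was at least 2 times as wide in 16, and 16 of the 32 gaps were between 1300 and 2000 bp. Of the 16 with a known host strand, the wider was upstream in 10. Older primate L1 gave 23 pairs among 454 regions and ancient mammalian L1 15 among 665. Pairs were defined after the positions had been seen, and the counts and rates are given without a test.

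**Figure D3:**
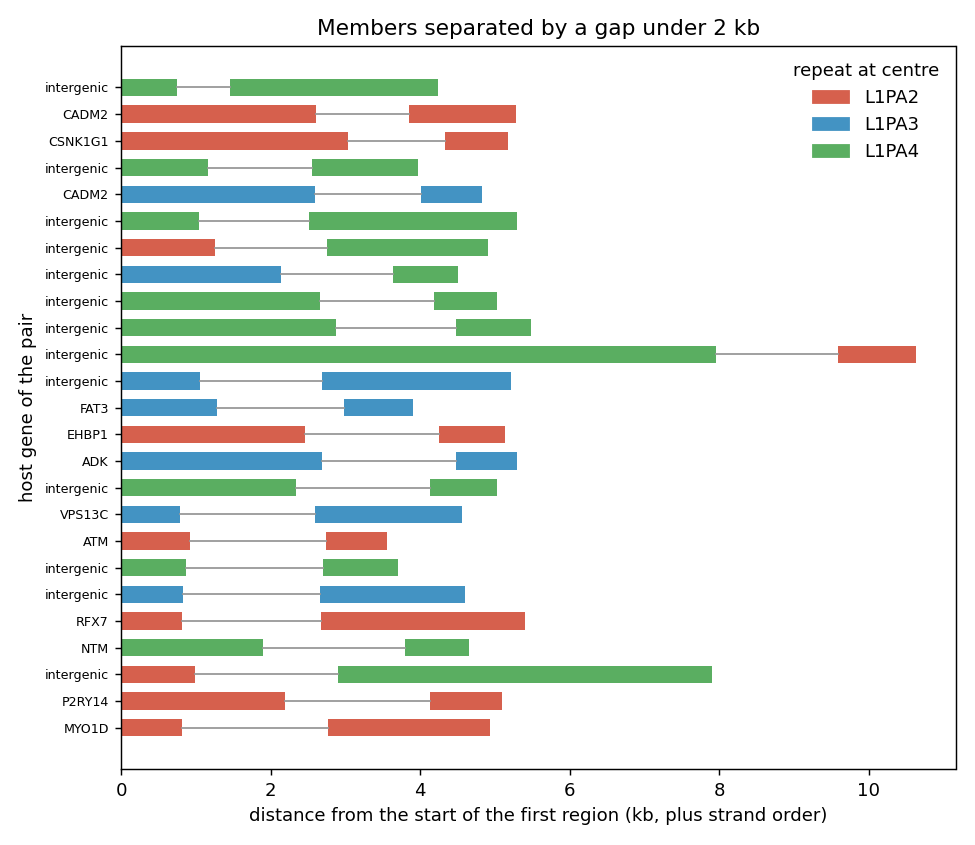
The 25 pairs of members with a gap under 2 kb, each drawn as 2 bars along the distance from the start of the first region (x axis, kb), sorted by gap with the smallest at the top. Bar colour gives the L1 subfamily at the region centre, the grey line is the gap, and labels give the host gene. In 19 of 25 pairs the wider region is at least 2 times as wide as the narrower.

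The densest run of members was intergenic. On chromosome 7, positions 19880680 to 19905773, 5 members lay within 25094 bp, with TMEM196 as the nearest start site. In order along the chromosome they were centred in L1PA3, L1PA4, L1PA4, L1PA2 and L1PA4 and were 2130, 865, 1007, 987 and 5011 bp wide. It was the only run of 3 or more members with gaps of at most 25 kb. Elsewhere members were scattered. Of the 564, 123 had another member within 100 kb of their centre (21.8%, 18.5 to 25.4%), against 24.6% of L1PA5 to L1PA8A regions and 40.8% of regions with no repeat at the centre among their own kind. The share was 30.2% among the 454 older primate L1 regions and 22% among the 665 ancient L1 regions. The no-repeat class has 2505 regions, and the part of class size in these shares was not tested.

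Members were mostly annotated as intronic, but carried the intergenic label more often than regions at L1PA5 to L1PA8A or at ancient L1. The label is that of the deposited annotation, and 64 of the 227 members that carried it were centred inside a gene body of the RefSeq table, any biotype counted. Of the 564, 337 were intronic and 227 intergenic (40.2%, 36.2 to 44.4%). In L1PA5 to L1PA8A, 176 of 532 were intergenic (33.1%, 29.1 to 37.3%), a difference of 7.17 percentage points (Fisher's exact test, two-sided, adjusted p = 0.0282). With L1HS and L1PA2 as the only members it was 7.48 points and missed the threshold (adjusted Fisher's exact p = 0.123). In ancient mammalian L1 (L1M and HAL1 names) 171 of 665 were (25.7%; difference 14.5 points, adjusted Fisher's exact p = 3.41e-07), and with no repeat at the centre 255 of 2505 (10.2%; difference 30.1 points, adjusted p = 4.04e-57). In older primate L1 (all other names that begin with L1P) the share was 46%, and the difference of -5.79 points missed the threshold (adjusted Fisher's exact p = 0.0929). Counted as outside every RefSeq gene body, the share was 29.1% in members and 22% in L1PA5 to L1PA8A (7.09 points, adjusted Fisher's exact p = 0.017). By subfamily the intergenic share was 34.4% in L1HS, 41.7% in L1PA2, 44.7% in L1PA3 and 34.8% in L1PA4, with overlapping intervals. The median width was 1697 bp in intergenic members and 1227 bp in intronic members, and 24.7% and 15.7% of them were between 2 and 2.5 kb. Where L1 copies lie in the genome was not entered in any of these comparisons. The 20 tests (5 shares against 4 classes) were adjusted together by the Benjamini-Hochberg method and treat regions as independent, which the close pairs are not.

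Few members were wide. Over 5 kb were 32 of 564 (5.67%, 3.91 to 7.92%), against 28.7% of ancient L1 regions (a difference of -23 points, adjusted Fisher's exact p = 7.62e-27) and 26.7% of regions with no repeat (-21 points, adjusted p = 5.74e-32). The share was 4.89% in L1PA5 to L1PA8A and 7.27% in older primate L1, and neither difference passed (adjusted Fisher's exact p of 0.622 and 0.39). A class is read from the centre alone, also where a wide region runs beyond the repeat there. The part of this rule in the width differences was not tested. Widths near that of a whole L1, 5.5 to 6.5 kb, were found in 5 members, all in L1PA3 (2.66% of its regions), and in 0.752% of L1PA5 to L1PA8A regions (adjusted Fisher's exact p = 1). They were 3.31% and 3.63% of ancient L1 and no-repeat regions (adjusted Fisher's exact p of 0.0117 and 9.60e-04). These 5 members were 5604 bp on chromosome 1, 6080 bp on chromosome 2, 6072 bp in intron 2 of 3 of WFDC10B on chromosome 20, 6467 bp in intron 11 of 15 of CFAP20DC on chromosome 3 and 6243 bp on chromosome X.

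Chromosome X held 37 members (6.56%, 4.66 to 8.93%). This was below the share in L1PA5 to L1PA8A (10.7%; -4.15 points, adjusted Fisher's exact p = 0.0287) and in older primate L1 (13.2%; -6.66 points, adjusted p = 0.00106), and above that of regions with no repeat (3.15%; 3.41 points, adjusted p = 0.00106). The difference from ancient L1 (8.12%) missed the threshold (adjusted Fisher's exact p = 0.39). When regions of one class within 5 kb were merged, the difference from L1PA5 to L1PA8A was -3.77 points and missed the threshold (adjusted Fisher's exact p = 0.0594). With L1HS and L1PA2 only, the difference from no-repeat regions was 1.56 points and missed the threshold (adjusted Fisher's exact p = 0.281). Chromosome 3 held the most members, 60 (10.6%), against 8.08% of L1PA5 to L1PA8A regions, 8.37% of older primate L1 regions and 6.33% of all regions, without a test. Chromosome 19 held 9 (1.6%), close to the 1.13% and 1.54% of these L1 classes, while its share of all regions was 6.44%.

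**Figure D4:**
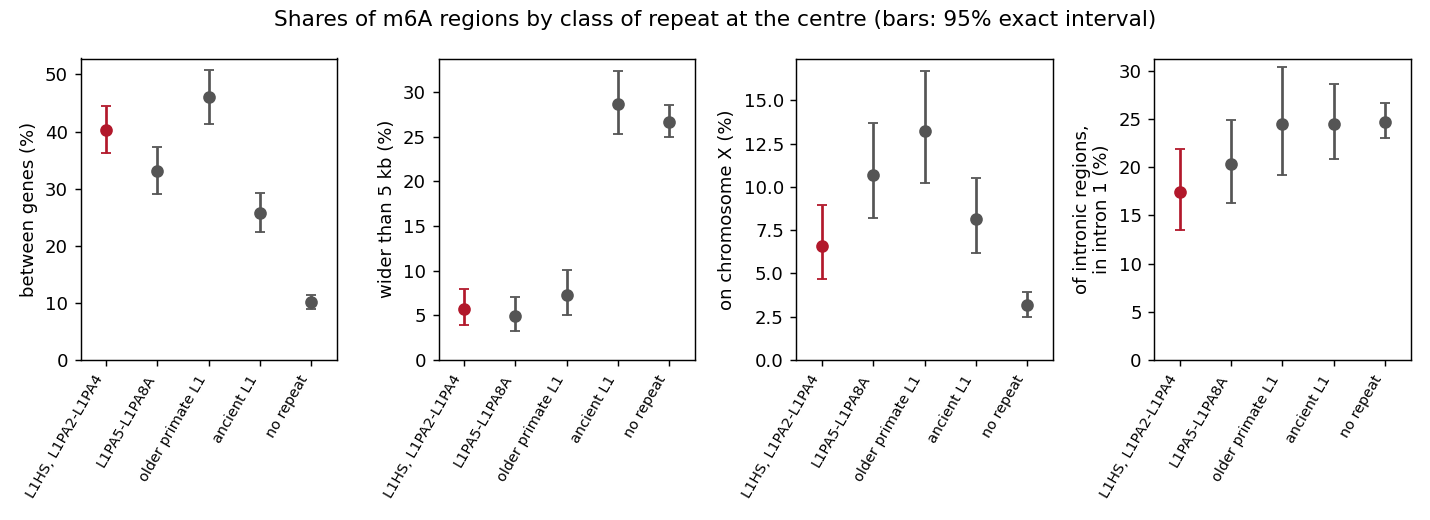
Shares of regions (y axes, %) that were intergenic, over 5 kb wide, on chromosome X and, of intronic regions, in intron 1, for members (red, left in each panel) and 4 other classes (grey). Points are shares and bars 95% exact intervals. Members were intergenic in 40.2% and over 5 kb in 5.67%.

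Members lay far from gene starts. The median distance of a member's centre to the nearest annotated start site was 59 kb for intronic members and 74.6 kb for intergenic ones. Regions with no repeat had medians of 14.7 and 27 kb, and L1PA5 to L1PA8A 50.4 and 67.9 kb. Within 10 kb of a start site were 26 of 337 intronic members (7.72%), against 40.6% of intronic regions with no repeat. Intron 1 held 58 of 334 intronic members in transcripts with 2 or more introns (17.4%, 13.5 to 21.9%), against 24.7% of no-repeat regions (-7.38 points, adjusted Fisher's exact p = 0.00738) and 24.5% of ancient L1 regions (-7.17 points, adjusted p = 0.0282). The difference from ancient L1 was -3.64 points without regions over 10 kb and -6.12 points on autosomes, and missed the threshold in both (adjusted Fisher's exact p = 0.317 and 0.0867). For L1HS and L1PA2 only, neither difference passed (adjusted Fisher's exact p of 0.24 for ancient L1 and 0.199 for no repeat). Against L1PA5 to L1PA8A (20.3%) and older primate L1 (24.5%) it missed the threshold (adjusted Fisher's exact p of 0.39 and 0.0705). The transcripts had a median of 13 introns in members and in L1PA5 to L1PA8A. The median was 11 in older primate L1 and 10 in ancient L1 and no-repeat regions. The number of introns was not entered in these comparisons.

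The intronic members lay in 251 protein-coding genes, which is 1.25% of the 20056 in the RefSeq table. Of the 337, 298 were in protein-coding genes, 31 in long non-coding RNA genes and 7 in transcribed pseudogenes, and 1 transcript was not matched. A single member was found in 210 of the 251 host genes, 2 in 37, 3 in 2 and 4 in 2. Only members labelled intronic were counted, each for the gene of its annotated transcript. The 64 intergenic-labelled members centred in a gene body are not in these counts. Hosts were long genes, with a median gene body of 232.1 kb (quartiles 122.3 and 465.8 kb), against 24.1 kb over all protein-coding genes. Of the 4011 genes with the longest bodies, 215 were hosts (5.36%, 4.68 to 6.1%), and of the 4012 with the shortest, 1 was by its transcript. That was PRB2, a salivary proline-rich protein gene, and of the 298 members in protein-coding genes its member was the only one centred outside the body that RefSeq gives its host. By gene body, then, no host in the shortest class held its member. PRB2 was named after its values were seen. Hosts of L1PA5 to L1PA8A regions had a median of 191 kb and hosts of no-repeat regions 59 kb. An m6A region centred in an exon was found in 43 of the 251 hosts as well (17.1%, 12.7 to 22.4%), against 12.8% of all protein-coding genes, 16.9% of hosts of L1PA5 to L1PA8A regions and 21.6% of hosts of no-repeat regions. The other 208 of the 251 hosts had no region so labelled, as was also the case for most protein-coding genes. Only labels of exon and untranslated region were counted, and a gene's RNA level was not in the files.

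**Figure D5:**
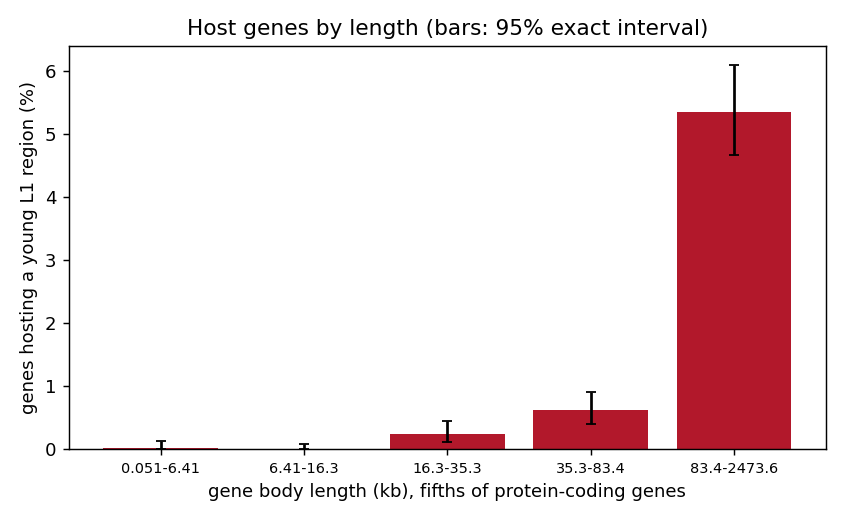
Share of protein-coding genes (y axis, %) that hosted a member in an intron, in 5 equal classes of gene body length (x axis, kb, shortest at left). Bars are shares and error bars 95% exact intervals. The longest class reached 5.36%, and the overall share was 1.25%.

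TTC28 and CADM2 hosted the most members, 4 each. TTC28, on the minus strand of chromosome 22, is known for an L1 in its first intron that is an active source of retrotransposition in human tumours. Its L1HS member, 1251 bp at positions 28664370 to 28665620, lay in intron 1 of 22, centred 14870 bp from the start site of the gene. The other 3 were an L1PA3 region of 951 bp and an L1PA4 region of 964 bp in intron 2 and an L1PA4 region of 1962 bp in intron 5. TTC28 held an exonic m6A region too. CADM2, a synaptic cell adhesion gene on chromosome 3, held both of its pairs in intron 1 of 9. The L1PA3 pair was 2587 and 821 bp wide with a gap of 1417 bp, and the L1PA2 pair 2598 and 1419 bp with a gap of 1257 bp.

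SUPT3H and STK32B, a serine/threonine kinase gene, hosted 3 each. The SUPT3H members were 1675 and 1430 bp in L1PA3 and 5089 bp in L1PA2. Those of STK32B were 1434, 2105 and 1150 bp, in L1PA2, L1PA4 and L1PA3. Of the 37 hosts of 2, those given next are among the ones with the most bases covered. INTU, a planar cell polarity gene needed for cilia, held 3695 bp in L1PA2 and 4155 bp in L1PA3 in a gene of 93.8 kb. CFAP20DC held 1080 bp in L1PA2 and the 6467 bp L1PA3 region. ASTN2, a gene of neuronal migration, held 2279 bp in L1PA2 and 4396 bp in L1HS. XXYLT1, whose product adds xylose to Notch, held 1895 and 4516 bp in L1PA2, and RABGAP1L, a Rab GTPase-activating protein gene, 2169 and 2492 bp in L1PA2. XXYLT1 held an exonic region too, as TTC28 did, and INTU, CFAP20DC, ASTN2 and RABGAP1L did not.

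Among 6 gene lists, synaptic adhesion and long neuronal genes had the highest count, 5 hosts of 30 (16.7%, 5.64 to 34.7%), against the 1.25% of all protein-coding genes. Among them were CADM2, the neurotrimin gene NTM with 2 regions in its last intron (1894 and 854 bp, L1PA4) and DLG2, a postsynaptic scaffold gene (1140 bp, L1PA4). CDH12, CDH13 and CNTN4 hosted none. The list was drawn up for long genes and had a median body of 1217.1 kb. In the longest class of all protein-coding genes, from 83.4 kb up, 5.36% were hosts, just below the lower bound of 5.64%. No share was taken over genes as long as those of the list, and the part of length was not tested. All 6 lists were chosen with earlier results of these data known. Of 40 DNA repair genes (median body 92.9 kb), 3 were hosts (7.5%, 1.57 to 20.4%), among them ATM with its pair and ERCC8 of transcription-coupled repair (1159 bp, L1PA4). That interval includes the 5.36% of the longest class. ATR, BARD1 and BLM hosted none. Chromatin modifiers, ubiquitin genes and genes of L1 control each gave 1 host of 30 (3.33%, 0.0844 to 17.2%). These were the remodeler CHD7 (1044 bp, L1PA3), the ubiquitin ligase HERC1 (2900 bp, L1PA4) and FTO, an RNA demethylase able to act on m6A, with a 1066 bp L1HS region in intron 9 of 9. ARID1B, ARID2, ATRX, BIRC6, CUL1, CUL3, ADAR, ATF7IP and DNMT1 hosted none. None of 28 pluripotency genes was a host, CDH1, CRIPTO and DNMT3B among them (upper bound 12.3%), in a list with a median body of 16.7 kb. MET, known for an intronic L1 with an antisense promoter, and DMD, the long dystrophin gene, hosted none. Only members labelled intronic were counted, and intergenic-labelled members centred in a gene body were not looked for in the listed genes. At the depth of this set, which is unknown, a gene without a member is not shown to lack m6A on an L1 copy.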

How the data were processed

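m6A-seq regions of wild-type H1 cells were used as deposited. The submitters' processing notes name hg38, MACS2 2.2.7.1, HISAT2 2.2.1 and HOMER, and also bedtools 2.30.0, SAMtools 1.6 and Trim Galore 0.6.7. Per the file headers, HOMER annotatePeaks.pl named the feature and repeat at each centre. The sets that were intersected are not named in the sources used. Deposited values other than positions and distances to start sites, in base pairs, were not used. The Peak Score was 0 in every line. No value per library was in these files, so libraries were not compared and their depth is unknown.

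Here, regions were classed by repeat name, and host genes were found by matching the annotated transcript to RefSeq (GRCh38.p14), with strand from its table of gene starts. Shares were compared by two-sided Fisher's exact tests with Benjamini-Hochberg adjustment over 20 comparisons, threshold 0.05, tried on simulated data first (Python 3.11.15, SciPy 1.17.1, pandas 2.3.3, matplotlib 3.10.9). Members and lists were chosen with earlier results of these data known. Named were, in each subfamily, the 2 widest regions up to 20 kb, the 2 nearest the median width and the narrowest; the 10 hosts with most members, ties going to the most bases covered; per list up to 4 hosts and 3 others; and TTC28, MET and DMD. SVOP, RB1, PRB2, PCAT4, WFDC10B, PANK3, DNAH14, TMEM196 and the hosts of pairs were chosen after their values were seen. Some genes that these rules name are not reported here. Alternatives were width limits, merging, a narrower member definition, autosomes only and other thresholds.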

Additional observations from a re-analysis of the deposited data

How the results depend on the processing

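Of 128 repeats of the 20 share comparisons, 121 kept their side of the threshold, and none of the 12 called differences changed sign. The sign changed in 6 repeats of differences that passed in neither form: over 5 kb against older primate L1 without regions over 10 kb (0.405 points) and against L1PA5 to L1PA8A with L1HS and L1PA2 only (-1.59 points), and 5.5 to 6.5 kb against these classes with merging or with L1HS and L1PA2 only (-0.863 to -0.441 points). With L1HS and L1PA2 only, 4 calls did not pass: intergenic against L1PA5 to L1PA8A (7.48 points, adjusted Fisher's exact p = 0.123), chromosome X against no repeat (1.56 points, 0.281), and intron 1 against ancient L1 (-6.28 points, 0.24) and no repeat (-6.49 points, 0.199). That setting leaves 212 members. The intron 1 difference from ancient L1 also did not pass without regions over 10 kb (-3.64 points) or on autosomes only (-6.12 points), and the chromosome X difference from L1PA5 to L1PA8A did not with merging within 5 kb (-3.77 points); the cause was not tested. Leaving out regions under 1 kb moved the median width to 1872 bp, the share of members with another within 100 kb to 15.6%, the share 2 to 2.5 kb wide to 24.3% and the close pairs to 6, since the narrower region of a pair is mostly under 1 kb. The share with another member nearby was 13.9% with merging, 9.91% with L1HS and L1PA2 only and 16.3% within 50 kb. With L1HS and L1PA2 only there were 97 host genes and 7 close pairs. The window of 1.8 to 2.8 kb, chosen after seeing the data as were the limits of 3 kb for gaps and 100 kb for widths and the count outside gene bodies, held 28.7% of members. No paired analysis was possible because the region set carries no value per library, and no library could be left out for the same reason.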
